A study of Mus musculus with 18 samples.

Results

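The mRNAs of 10 subunits of Polycomb repressive complex 2 (PRC2) were followed in mouse induced pluripotent stem cells (iPSCs) of wt or Hmga2 KO genotype, before and during their transition into epiblast-like cells (EpiLCs). The members were taken by gene symbol, which gave 10 of the 45706 genes in the count table: the core subunits Ezh2, Ezh1, Eed, Suz12, Rbbp4 and Rbbp7, and the accessory subunits Mtf2, Phf19, Jarid2 and Aebp2. All 10 passed the filter on low counts and were among the 16619 genes tested.

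PRC2 is the enzyme complex that methylates lysine 27 of histone H3, the H3K27me3 mark of silenced developmental genes. Ezh2 or its paralogue Ezh1 carries the catalytic SET domain, Suz12 is the scaffold, Eed binds the methylated product and stimulates the enzyme, and the histone chaperones Rbbp4 and Rbbp7 complete the core. Accessory subunits define alternative forms of the complex. One form holds a Polycomb-like protein such as Mtf2 or Phf19, which help it to bind unmethylated CpG-rich DNA, and the other holds Jarid2 and Aebp2. In pluripotent cells PRC2 keeps lineage genes silent, and the mark is redistributed when cells leave the naive state.

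RNA was sequenced from 3 biological replicates of each of 6 groups. The wt libraries came from 1 iPSC clone of wild-type genotype, and the libraries labelled KO#1 and KO#2 each came from 1 Hmga2 KO clone, so that a difference between a clone and wt cannot be told apart from a difference between clones. At 0 h the cells grew with leukaemia inhibitory factor and the inhibitors PD0325901 and CHIR-99021 (2i) on inactivated fibroblast feeders, and for the 24 h groups they were plated on Geltrex in a medium with Activin A and bFGF. The treatment label of EpiLC induction is on all samples, those at 0 h included, and culture conditions, feeders and time change together between 0 h and 24 h. Libraries held 3466436 to 23872837 counts, and the shallowest was replicate 1 of wt at 0 h.

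Several properties of the libraries move with the groups. Hmga2 itself, a DNA-binding architectural protein, was at 17.7 ± 4.53 CPM (counts scaled to a common library size with TMM factors, mean ± SD, n = 3) in wt at 0 h and at 5.50 ± 4.28 in KO#1 and 4.73 ± 3.25 in KO#2. At 24 h it was at 5.77 ± 0.226 CPM in wt, 2.26 ± 1.40 in KO#1 and 5.65 ± 4.17 in KO#2, so its mRNA did not separate the libraries labelled KO#2 from wt at that time (log2 fold change -0.04, adjusted p = 0.966). In KO#1 at 24 h it was not called either (-1.36, adjusted p = 0.22), though its libraries did not overlap with those of wt. At 0 h Hmga2 was called lower in KO#2 (-1.90, adjusted p = 0.023) and not in KO#1 (-1.71, adjusted p = 0.124). The position of the altered part of the gene was not used here, so these reads need not come from an intact transcript. The 8 feeder fibroblast markers summed to 110 to 898 CPM in the 0 h libraries and to 19.0 to 219 at 24 h, with the highest 24 h sum in replicate 1 of KO#2, which also had the highest Hmga2 level of that group, 10.5 CPM. At 0 h the highest feeder sum of KO#2 and its highest Hmga2 level, 8.25 CPM, were likewise in 1 library, replicate 3. The same held for replicate 1 of KO#1 at 0 h (514 and 10.2 CPM) and at 24 h (51.8 and 3.67 CPM). In wt it did not hold, and the 0 h library with the lowest feeder sum (110 CPM) had the highest Hmga2 level (22.4 CPM). The share of counts from protein-coding genes was 41.6% to 63.4% in wt, 41.3% to 63.1% in KO#1 and 82.3% to 84.7% in KO#2 at 24 h. Over 24 h, 8 of 10 naive markers were called lower in each line, beside 24.7% of all genes in wt, 20.6% in KO#1 and 13.3% in KO#2, and 7 of 8 primed markers were called higher in each line, beside 26%, 20.1% and 12.7%. The lines also differed in these markers at 24 h. Naive markers were called higher than in wt for 5 of 10 in KO#1 (median log2 fold change 1.11, with 9.86% of all genes called in either direction) and for 6 of 10 in KO#2 (median 1.41, with 21.3% of all genes called higher), and none was called lower. Primed markers were called lower than in wt for 4 of 8 in KO#1 (median -1.20) and for 2 of 8 in KO#2 (median -0.56, with 16% of all genes called lower), and none was called higher. At 0 h, 2 naive markers were called higher and 1 lower in KO#1 than in wt, and 1 primed marker higher and 2 lower (median -0.95), beside 6.67% of all genes called in either direction. In KO#2 at 0 h, 2 naive markers were called higher and 3 lower, and 1 primed marker higher and 3 lower (median -0.70), beside 21.5% of all genes called higher and 16.6% lower. The 8 markers of cycling cells summed to 1328 to 1758 CPM in wt, 1439 to 2136 in KO#1 and 1417 to 1726 in KO#2 at 0 h, and to 3142 to 3240, 3291 to 3623 and 2170 to 2742 at 24 h. With time 5 of the 8 were called higher in wt, 5 in KO#1 and 3 in KO#2, and none lower. In KO#2 against wt, 3 were called higher and 2 lower at 0 h, and 2 lower at 24 h. All 5 pluripotency markers had counts in every library, and 3 of them were called lower in KO#2 than in wt at 0 h.

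Ordered by level per length (CPM per kb of exon), Rbbp4, Rbbp7, Jarid2 and Suz12 led the members in wt at 0 h, and Phf19 was last. There Rbbp4 stood at 34.8 ± 5.27 CPM per kb, Rbbp7 at 30.8 ± 6.45, Jarid2 at 28.2 ± 9.12 and Suz12 at 24.8 ± 4.08, and each of these overlapped with its neighbour in the order. Mtf2 (17.0 ± 6.48), Eed (13.6 ± 4.32), Ezh2 (7.59 ± 2.18) and Aebp2 (5.92 ± 0.323) followed, again with overlap between neighbours. Ezh1 (3.02 ± 0.243) lay below all of these and Phf19 (0.444 ± 0.0782) below Ezh1 without overlap. At 24 h in wt, Rbbp7 led at 95.7 ± 13.8 CPM per kb, apart from Rbbp4 at 49.5 ± 2.68, which was itself apart from the rest. In KO#2 the order differed at both times in that Mtf2 and Suz12 stood above Rbbp4: at 0 h Mtf2 was at 69.6 ± 12.4 CPM per kb, Suz12 at 57.4 ± 9.13 and Rbbp4 at 24.3 ± 1.85. These levels divide by all annotated exonic bases of a gene, so isoform use can shift them.

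**Figure D1:**
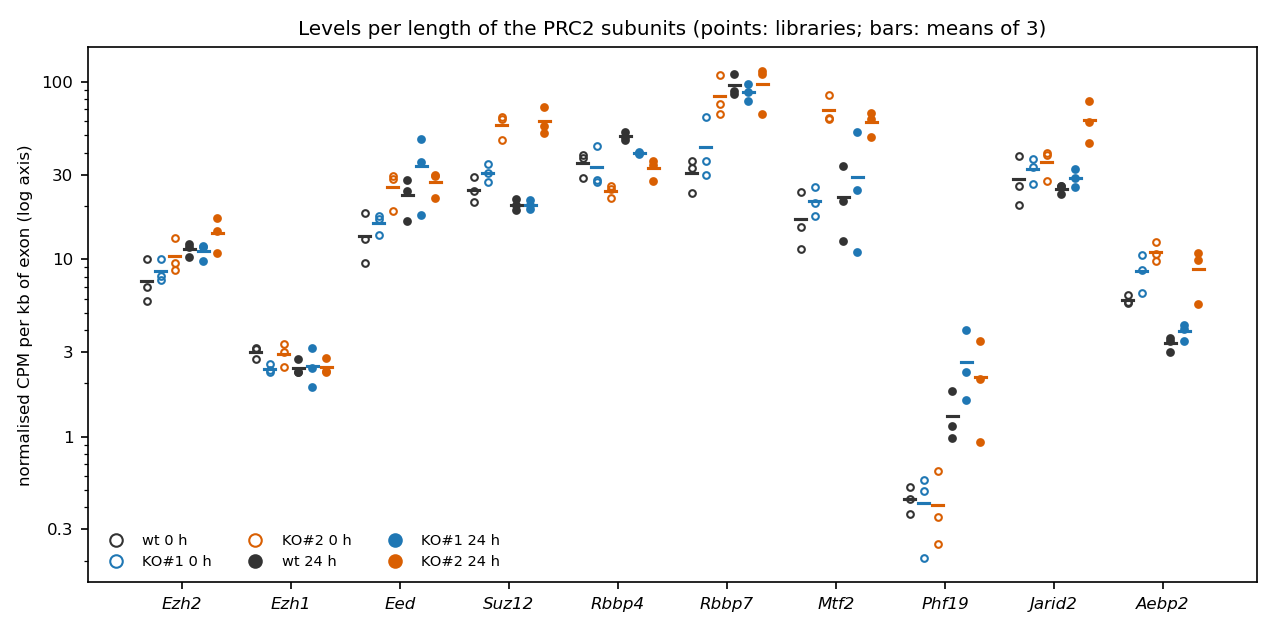
Normalised CPM per kb of exon (log axis) of the 10 subunits. Points are libraries, short bars are means of 3, open points are 0 h and filled points 24 h, with wt in black, KO#1 in blue and KO#2 in orange. Rbbp7 reaches 95.7 CPM per kb in wt at 24 h, Phf19 is at 0.444 in wt at 0 h, and the means of Suz12 and Mtf2 in KO#2 lie above those of the other lines at both times, with overlap for Mtf2 at 24 h.

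Of the catalytic subunits, Ezh2 was measured at 38.7, 66.8 and 46.5 CPM in wt at 0 h, at 54.1, 67.0 and 51.0 in KO#1 and at 63.5, 58.1 and 87.8 in KO#2. At 24 h its values were 68.5, 81.1 and 78.6 CPM in wt, 65.3, 79.9 and 78.9 in KO#1 and 114, 72.6 and 96.4 in KO#2. The 24 h libraries of wt lie above those at 0 h without overlap, whereas the 3 lines overlap at 24 h. Adjusted p-values here and below come from quasi-likelihood tests in edgeR, adjusted by Benjamini and Hochberg's method over all genes tested, and a gene is called at an adjusted p below 0.05. Ezh2 was called in none of the 11 comparisons, and came nearest with time in wt (log2 fold change 0.58 ± 0.24 SE, adjusted p = 0.0513). Without replicate 2 of wt at 0 h, that comparison gave 0.83 with an adjusted p of 0.0139, and KO#2 against wt at 0 h gave 0.71 with an adjusted p of 0.0427. The change with time in wt was also called by DESeq2 (0.56, adjusted p = 0.0357) and with its size factors in edgeR (0.57, adjusted p = 0.0484). KO#2 against wt at 0 h was also called with at least 10 counts in every library (0.64, adjusted p = 0.0358). Library sizes alone called it at 0 h (0.90, adjusted p = 0.0363) and at 24 h (1.36, adjusted p = 0.0013). In bulk RNA, fewer cells of a type and less RNA per cell cannot be told apart.

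Ezh1 ranged from 14.2 to 24.7 CPM over the 18 libraries and was called in no comparison either. It was at 22.5 ± 1.80 CPM in wt at 0 h and at 18.3 ± 1.79 at 24 h, and its 95% intervals for the log2 fold changes of both KO lines against wt stay between -0.76 and 0.47. Per length, Ezh2 exceeded Ezh1 by 2.56 ± 0.959 times in wt at 0 h and by 4.66 ± 0.485 times at 24 h, without overlap between those libraries (1.85 to 3.65 against 4.31 to 5.21). In KO#1 the ratio was 3.53 ± 0.340 and 4.58 ± 0.750, and in KO#2 3.69 ± 1.41 and 5.67 ± 0.878, at 0 h and 24 h.

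Eed, the reader subunit, was at 36.7, 69.6 and 49.9 CPM in wt at 0 h and at 108, 93.3 and 62.8 at 24 h. In KO#1 it was at 52.7, 67.4 and 64.7 CPM at 0 h and at 183, 136 and 67.7 at 24 h. In KO#2 it was at 72.1, 114 and 109 CPM at 0 h and at 84.9, 113 and 114 at 24 h. The 24 h libraries of wt and KO#1 spread widely, with a coefficient of variation of 26.1% and 45.0%, and in both lines replicate 3 is the lowest. Eed rose with time in KO#1 (1.06 ± 0.32, adjusted p = 0.0148), a call lost without replicate 1 of KO#1 at 0 h (0.96, adjusted p = 0.0662) or at 24 h (0.71, adjusted p = 0.112). In wt the change was 0.75 ± 0.32 with an adjusted p of 0.0615, and it was called without replicate 2 at 0 h (1.02, adjusted p = 0.029) or replicate 3 at 24 h (0.89, adjusted p = 0.0468).

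Suz12, the scaffold, was at 104, 144 and 119.8 CPM in wt at 0 h and at 108, 94.2 and 100.1 at 24 h. KO#1 gave 151, 136 and 170.4 CPM at 0 h and 106, 95.2 and 101 at 24 h. KO#2 gave 307, 232 and 312 CPM at 0 h and 358, 278 and 255 at 24 h. Every library labelled KO#2 therefore lies above every library of the other lines, whose highest value is 170.4 CPM. Per length, Suz12 exceeded Ezh2 by 1.81 ± 0.291 times in wt and 1.84 ± 0.314 times in KO#1 at 24 h, and by 4.33 ± 0.805 times in KO#2.

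The histone chaperones differed in their order among the lines. Rbbp4 was at 252, 337 and 324 CPM in wt at 0 h and at 458, 411 and 430.5 at 24 h. Its values in KO#1 were 245, 239 and 383 at 0 h and 355, 346 and 344 at 24 h, and in KO#2 195, 218 and 226 at 0 h and 299, 242 and 313 at 24 h. At 24 h the 3 lines do not overlap, with wt highest and KO#2 lowest. Rbbp7 was at 68.6, 105 and 95.7 CPM in wt at 0 h and at 260.5, 324 and 249.99 at 24 h. It was at 86.7, 104 and 184 CPM in KO#1 at 0 h and at 254, 284 and 226 at 24 h, whereas KO#2 already had 217, 318 and 192 at 0 h and then 192, 334 and 322 at 24 h. The 0 h libraries of KO#2 thus lie above all others at 0 h and overlap with the 24 h libraries. The ratio of Rbbp4 to Rbbp7 per length was 1.14 ± 0.0749 in wt at 0 h, 0.306 ± 0.0822 in KO#2 at 0 h and between 0.361 and 0.526 as group means at 24 h. In the annotation, 31.4% of the 75-base stretches of the Rbbp4 transcript also occur, on the opposite strand, in Gm26722 or Sync, and 9.54% of those of Rbbp7 in the processed pseudogene Gm6382 or in Txlng. The same holds for 9.38% of Eed with E230029C05Rik and 8.08% of Mtf2 with Tmed5, both on the opposite strand. Whether the counting used strand is not given in the sources used here, so the share of these genes in the counts of Rbbp4, Rbbp7, Eed and Mtf2 is uncertain. Rbbp4 and Rbbp7 share no such stretch with each other.

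**Figure D2:**
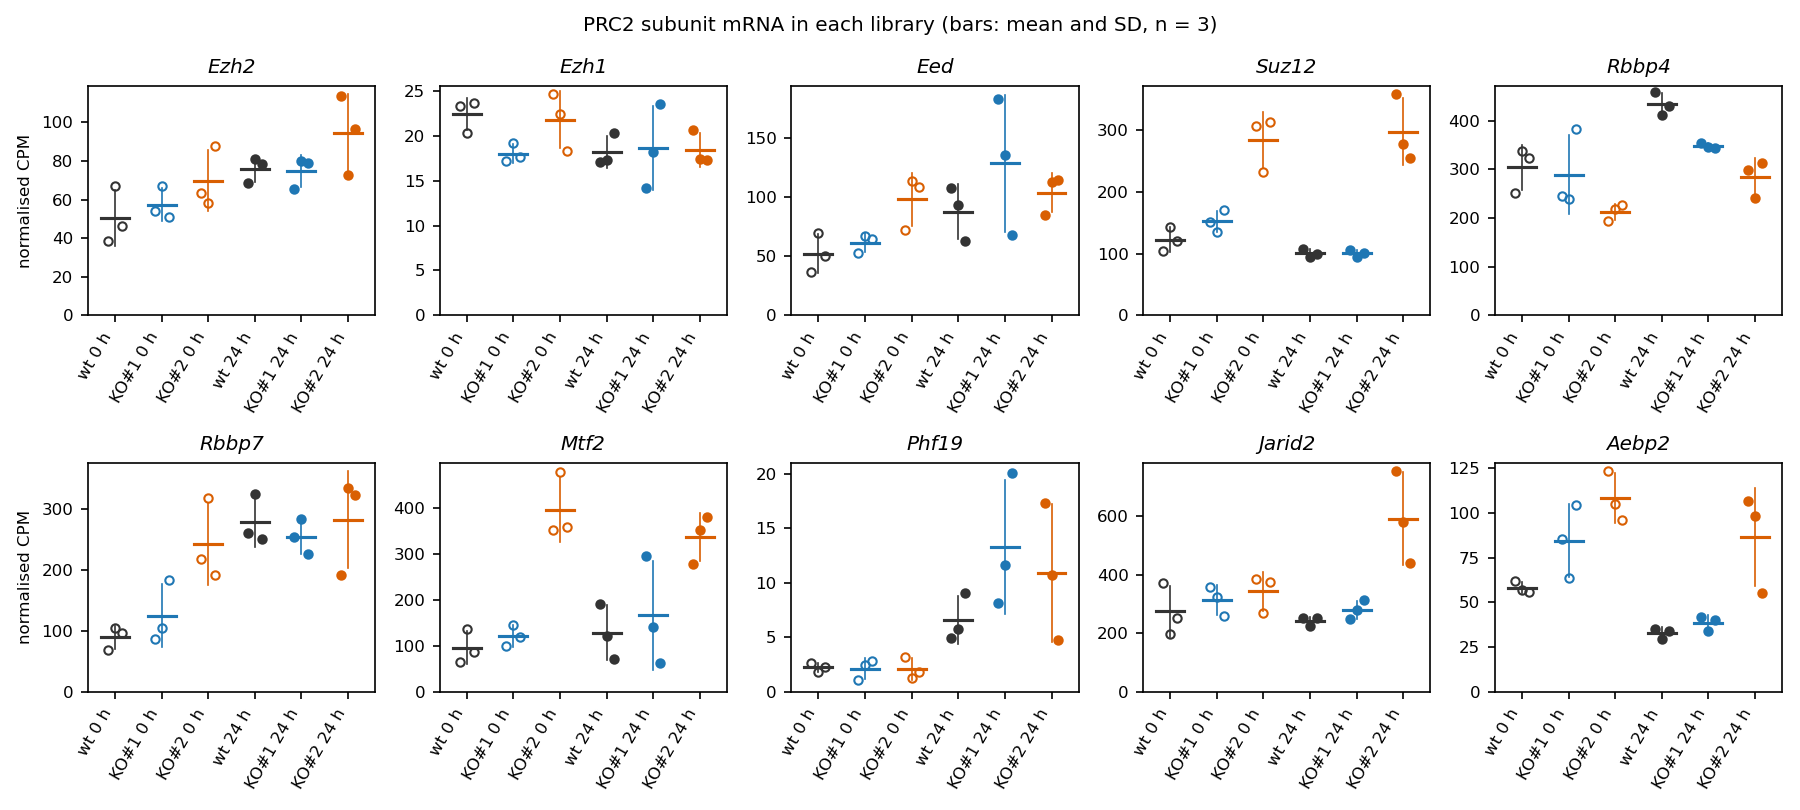
Normalised CPM (linear axes from 0) of each subunit in each library. Points are libraries in replicate order, horizontal bars are means and vertical bars SD of 3, open at 0 h and filled at 24 h. Suz12 of KO#2 is above the other lines at both times and Mtf2 at 0 h, Rbbp7 of KO#2 is at its 24 h range already at 0 h, and Jarid2 stands out in KO#2 at 24 h.

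Among the accessory subunits, Mtf2 (Pcl2) was at 65.6, 137 and 86.7 CPM in wt at 0 h and at 192, 122 and 72.0 at 24 h. It was at 100.4, 147 and 119 CPM in KO#1 at 0 h and at 296, 141 and 63.0 at 24 h. In KO#2 it was at 353, 478 and 359 CPM at 0 h and at 279, 353 and 381 at 24 h. At 0 h KO#2 lies far above the other lines, and at 24 h replicate 1 of KO#1 reaches into its range. Within groups Mtf2 and Eed moved together: over the 18 libraries, their deviations from the group means had a Pearson r of 0.93, a description over libraries that share depth and composition. Phf19 (Pcl3) was much lower, at 1.84 to 2.62 CPM in wt, 1.04 to 2.86 in KO#1 and 1.26 to 3.21 in KO#2 at 0 h, which is 8 to 79 counts in a library. At 24 h it was at 4.93, 5.81 and 9.08 CPM in wt, at 8.16, 11.7 and 20.1 in KO#1 and at 17.3, 10.7 and 4.74 in KO#2. In each line all 24 h libraries lie above all 0 h libraries.

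Mtf2 and Suz12, the members with the largest log2 fold change of KO#2 against wt at 0 h and at 24 h (given below), are shown with the 250 bases before their RefSeq starts (GRCm38.p6, plus strand, no annotated exon inside). Suz12 (ENSMUSG00000017548) spans chr11:79993106-80034123 and its window is chr11:79992856-79993105, and Mtf2 (ENSMUSG00000029267) spans chr5:108065674-108109004 and its window is chr5:108065424-108065673. Capitals mark matches, on either strand, to GGGCGG (GC box), CCAAT, E2F-type words (TTTCCCGC, TTTGGCGC, TTTCGCGC, TTTGCCGC) and runs of at least 6 A or T, and overlapping matches are merged.
Suz12: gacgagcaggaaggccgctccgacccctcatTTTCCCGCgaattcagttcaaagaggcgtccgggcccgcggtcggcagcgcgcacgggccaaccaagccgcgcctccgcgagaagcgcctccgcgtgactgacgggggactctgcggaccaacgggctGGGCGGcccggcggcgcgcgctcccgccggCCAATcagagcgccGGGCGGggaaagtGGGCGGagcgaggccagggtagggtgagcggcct
Mtf2: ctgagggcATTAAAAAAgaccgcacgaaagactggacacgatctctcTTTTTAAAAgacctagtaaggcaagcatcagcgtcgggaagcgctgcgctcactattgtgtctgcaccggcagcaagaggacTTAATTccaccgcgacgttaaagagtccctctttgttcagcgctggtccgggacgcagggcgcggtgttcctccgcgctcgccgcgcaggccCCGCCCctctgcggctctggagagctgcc
The window of Suz12 is 73.6% GC and holds 3 GC boxes, 1 CCAAT and 1 E2F-type word, TTTCCCGC, which starts 219 bases before the gene. That of Mtf2 is 59.2% GC and holds 1 GC box and runs of A or T. Of 27025 windows of the same length, 33% hold a GC box, 34.5% a CCAAT, 1.92% an E2F-type word and 67.6% a run of 6 A or T. CACGTG (6.04% of windows) and the NRF1-type word GCATGCGC (2.31%) were searched as well and are in neither window. Both windows are richer in GC than the longest transcripts of these genes (41.6% for Suz12 and 38.2% for Mtf2). A match is a description, not a site.

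Jarid2, which bridges its form of PRC2 to chromatin, was at 371, 198 and 253 CPM in wt at 0 h and at 251, 226 and 250.3 at 24 h. KO#1 gave 359, 322 and 258 CPM at 0 h and 249.8, 278 and 313 at 24 h. KO#2 gave 386, 268 and 374 CPM at 0 h and 754, 578 and 438 at 24 h, so that only its 24 h libraries leave the common range of 198 to 386. Aebp2, its zinc finger partner, was at 62.0, 56.9 and 56.1 CPM in wt at 0 h and at 35.4, 29.6 and 34.3 at 24 h. In KO#1 it was at 85.6, 63.5 and 104 CPM at 0 h and at 41.8, 34.1 and 40.1 at 24 h. In KO#2 it was at 124, 105 and 96.3 CPM at 0 h and at 107, 98.2 and 55.0 at 24 h, where replicate 3 is the lowest but still above every 24 h library of the other lines.

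With 24 h of induction, 3 of 10 members were called in wt, where 50.7% of all genes tested were called (26% higher, 24.7% lower). Rbbp7 rose 3.10-fold (log2 fold change 1.63 ± 0.31, adjusted p = 0.000362). Phf19 rose 3.04-fold (1.60 ± 0.52, adjusted p = 0.0157), a call lost without replicate 2 at 0 h (1.47, adjusted p = 0.0588) or replicate 3 at 24 h (1.25, adjusted p = 0.0723), and also with library sizes alone (1.00, adjusted p = 0.15). Aebp2 fell by 0.82 ± 0.24 on the log2 scale (adjusted p = 0.00964). At an unadjusted p below 0.05 there were 6 of 10 members, beside 57.1% of all genes. The median log2 fold change of the members was 0.46 beside 0.03 over all genes. Rbbp4 was at 0.51 ± 0.22 (adjusted p = 0.0651), Suz12 at -0.28 ± 0.21 (adjusted p = 0.272), Jarid2 at -0.18 ± 0.27 (adjusted p = 0.598) and Mtf2 at 0.41 ± 0.43 (adjusted p = 0.439). DESeq2 called 5 members here, adding Ezh2 and Rbbp4. With offsets corrected for GC content, described below, Suz12 was also called lower (-0.71, adjusted p = 0.0168).

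In KO#1, 5 of 10 members were called with time, beside 40.8% of all genes (20.1% higher, 20.6% lower). Phf19 rose 6.11-fold (2.61 ± 0.51, adjusted p = 0.00081), Rbbp7 2.04-fold (1.03 ± 0.30, adjusted p = 0.0122), and Eed 2.09-fold as given above. With library sizes alone, the calls of Rbbp7 (0.20, adjusted p = 0.674) and Eed (0.18, adjusted p = 0.685) were lost, with the median over all genes at -0.78. Aebp2 fell by 1.13 ± 0.24 (adjusted p = 0.00158) and Suz12 by 0.60 ± 0.21 (adjusted p = 0.0307). The Suz12 call was lost when any 1 of the 6 libraries other than replicate 2 at 0 h was left out (highest adjusted p 0.0918), with no filter on low counts (-0.58, adjusted p = 0.177) and with only the groups compared in the fit (-0.57, adjusted p = 0.0916). The Rbbp7 call was lost without replicate 1 or 2 at 0 h or replicate 2 at 24 h (0.82 to 0.93, highest adjusted p 0.0734). In KO#2, 2 of 10 members were called, beside 26% of all genes (12.7% higher, 13.3% lower). Phf19 rose 5.21-fold (2.38 ± 0.48, adjusted p = 0.00161) and Jarid2 1.72-fold (0.79 ± 0.27, adjusted p = 0.0368), the latter lost when any 1 of the 6 libraries other than replicate 3 at 24 h was left out (highest adjusted p 0.147), and under 4 other alternatives. These were library sizes alone (0.76, adjusted p = 0.136), no filter (0.80, adjusted p = 0.0683), at least 10 counts in every library (0.66, adjusted p = 0.0707) and only the groups compared (0.79, adjusted p = 0.0616). Phf19 was the 1 member called in all 3 lines, with counts as low as 8 in a library at 0 h.

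Whether the response to induction differed from wt was tested as the difference of the 2 changes. None of the 10 members was called for KO#1, beside 0.391% of all genes, and none had an unadjusted p below 0.05, beside 10.1% of all genes. None was called for KO#2, beside 1.47% of all genes, and 2 had an unadjusted p below 0.05, beside 23.6% of all genes. These were Rbbp7 (-1.41 ± 0.42, adjusted p = 0.0854), whose level barely moved in KO#2 (0.22 ± 0.30), and Jarid2 (0.96 ± 0.38, unadjusted p = 0.0195). DESeq2 called 1 member, Rbbp7 (-1.37, adjusted p = 0.0261), for KO#2. These 2 differences share the wt libraries.

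No member was called between KO#1 and wt at 0 h, beside 6.67% of all genes, or at 24 h, beside 9.86%. At an unadjusted p below 0.05 there was 1 member at each time, beside 19.9% of all genes at 0 h and 22.3% at 24 h. These were Aebp2 at 0 h (0.54 ± 0.24, adjusted p = 0.215) and Phf19 at 24 h (1.01 ± 0.46, adjusted p = 0.201). DESeq2 and all other alternatives also called no member in either comparison. The 95% intervals leave room for changes: for Ezh2 they ran from -0.33 to 0.67 at 0 h and from -0.52 to 0.47 at 24 h, and for Suz12 from -0.13 to 0.76 and from -0.44 to 0.44.

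Against wt, the libraries labelled KO#2 differed in 5 of 10 members at 0 h, beside 38.1% of all genes (21.5% higher, 16.6% lower). All 5 were higher: Mtf2 4.10-fold (2.03 ± 0.45, adjusted p = 0.00251), Rbbp7 2.70-fold (1.43 ± 0.31, adjusted p = 0.00209), Suz12 2.32-fold (1.21 ± 0.21, adjusted p = 0.000539), Eed 1.88-fold (0.91 ± 0.32, adjusted p = 0.0354) and Aebp2 1.86-fold (0.89 ± 0.24, adjusted p = 0.00882). The Eed call was lost without replicate 1 or 3 of wt or replicate 2 or 3 of KO#2 (highest adjusted p 0.151). The median log2 fold change of the members was 0.67, beside 0.10 over all genes. At 24 h 5 of 10 members were again called, beside 37.3% of all genes (21.3% higher, 16% lower). Suz12 was 2.95-fold higher (1.56 ± 0.21, adjusted p = 4.71e-05), Mtf2 2.62-fold (1.39 ± 0.44, adjusted p = 0.0187), Aebp2 2.62-fold (1.39 ± 0.24, adjusted p = 0.000322) and Jarid2 2.44-fold (1.28 ± 0.27, adjusted p = 0.00137). Rbbp4 was lower by 0.60 ± 0.22 on the log2 scale (adjusted p = 0.0408), a call lost when any 1 of the 6 libraries was left out (highest adjusted p 0.154) and reversed in sign with library sizes alone. The call was also lost with no filter (-0.57, adjusted p = 0.206), with at least 10 counts in every library (-0.46, adjusted p = 0.0774) and with protein-coding genes only (-0.51, adjusted p = 0.0723). The median over the members was 0.52, beside 0.20 over all genes. The Mtf2 call was lost without replicate 2 (1.37, adjusted p = 0.0575) or replicate 3 (1.13, adjusted p = 0.0839) of wt at 24 h. Suz12, Mtf2 and Aebp2 were the members called at both times, and Ezh2 (0.45 ± 0.24 at 0 h, 0.31 ± 0.24 at 24 h) and Ezh1 (-0.04 ± 0.21 and 0.01 ± 0.21) at neither. The alternatives that called Ezh2 are given above.

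**Figure D3:**
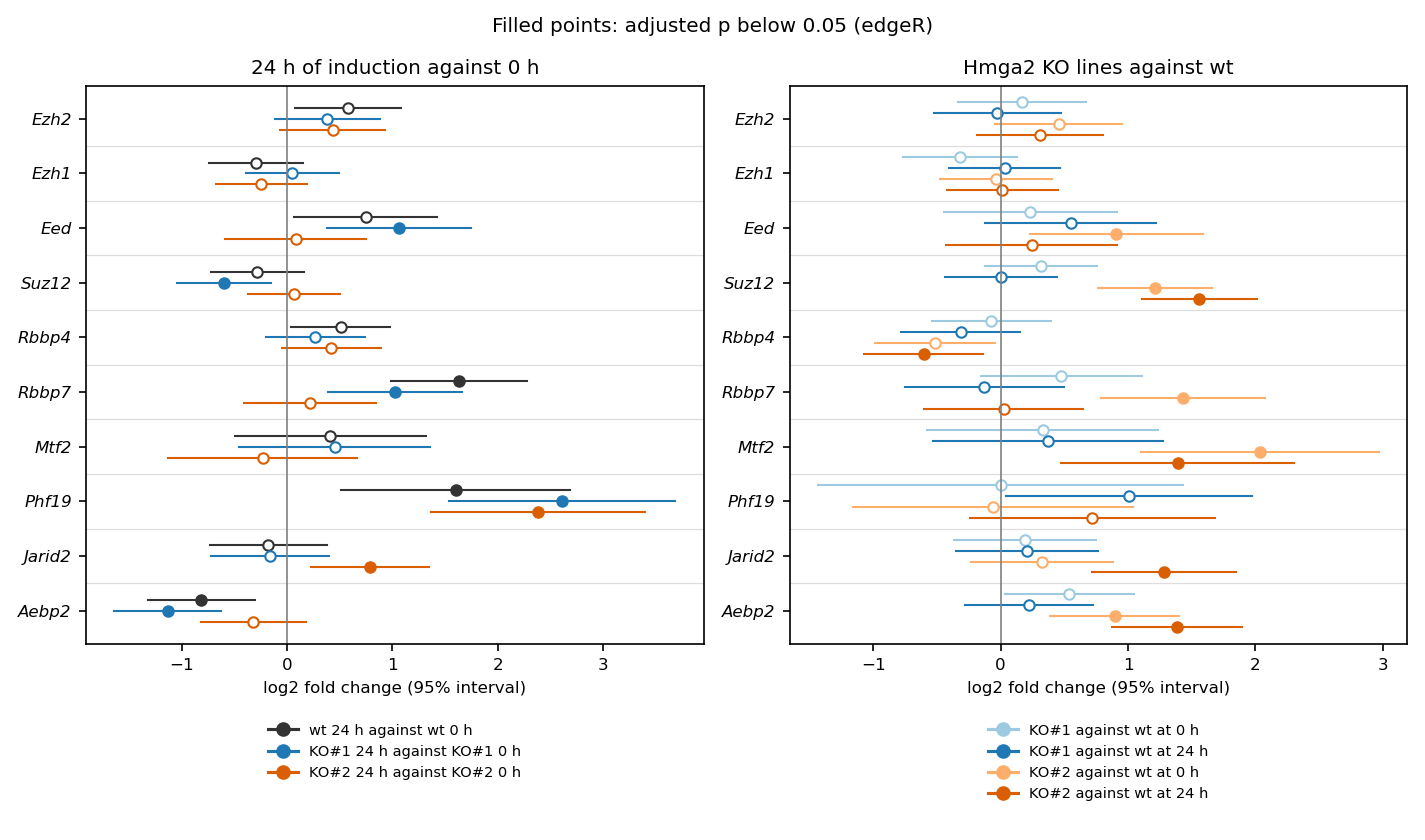
Log2 fold changes of the 10 subunits with 95% intervals, for 24 h against 0 h in each line on the left and for each KO clone against wt on the right. Filled points have an adjusted p below 0.05. Phf19 is filled in all 3 lines with time, no point of KO#1 against wt is filled, and Suz12, Mtf2 and Aebp2 of KO#2 are filled at both times.

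Scaling and sequence composition move with these KO#2 values. The protein-coding share given above for 24 h was higher in each KO#2 library than in any wt or KO#1 library. At 0 h it was 52.6% to 66.7% in wt, 62.0% to 77.4% in KO#1 and 76.3% to 79.1% in KO#2, so that KO#2 was apart from wt and overlapped with replicate 3 of KO#1. Scaling by library sizes alone moves the median over all genes at 24 h from 0.20 to 1.24, with Rbbp4 then at 0.43, below that median, and Suz12 at 2.60. Over 16517 genes with an annotated transcript (99.4% of those tested), the log2 fold change of KO#2 against wt at 0 h fell with the GC content of the longest transcript (Spearman rho -0.50, a description across genes, which are not independent). The median was 1.18 for the 1145 genes with at most 40% GC and -0.63 for the 4474 genes with more than 54%. At 24 h the same medians were 0.70 and -0.16 (rho -0.26), and longer transcripts had higher values (rho 0.31). The 3 members called at both times have the lowest GC content of the 10, with 38.2% for Mtf2, 40.9% for Aebp2 and 41.6% for Suz12, against 44.4% for Ezh2, 44.7% for Rbbp7, 45.2% for Rbbp4, 47.8% for Eed, 48.8% for Jarid2, 51.2% for Ezh1 and 53.9% for Phf19. At 0 h the median of all genes with 40% to 42% GC was 1.03, close to the values of Suz12 (1.21) and Aebp2 (0.89), whereas at 24 h it was 0.55, below their 1.56 and 1.39. Mtf2 lay above the median of genes with at most 40% GC at both times (2.03 against 1.18 at 0 h, 1.39 against 0.70 at 24 h). At 44% to 46% GC the 0 h median was 0.61, with Rbbp7 above it (1.43) and Ezh2 (0.45) and Rbbp4 (-0.52) below.

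**Figure D4:**
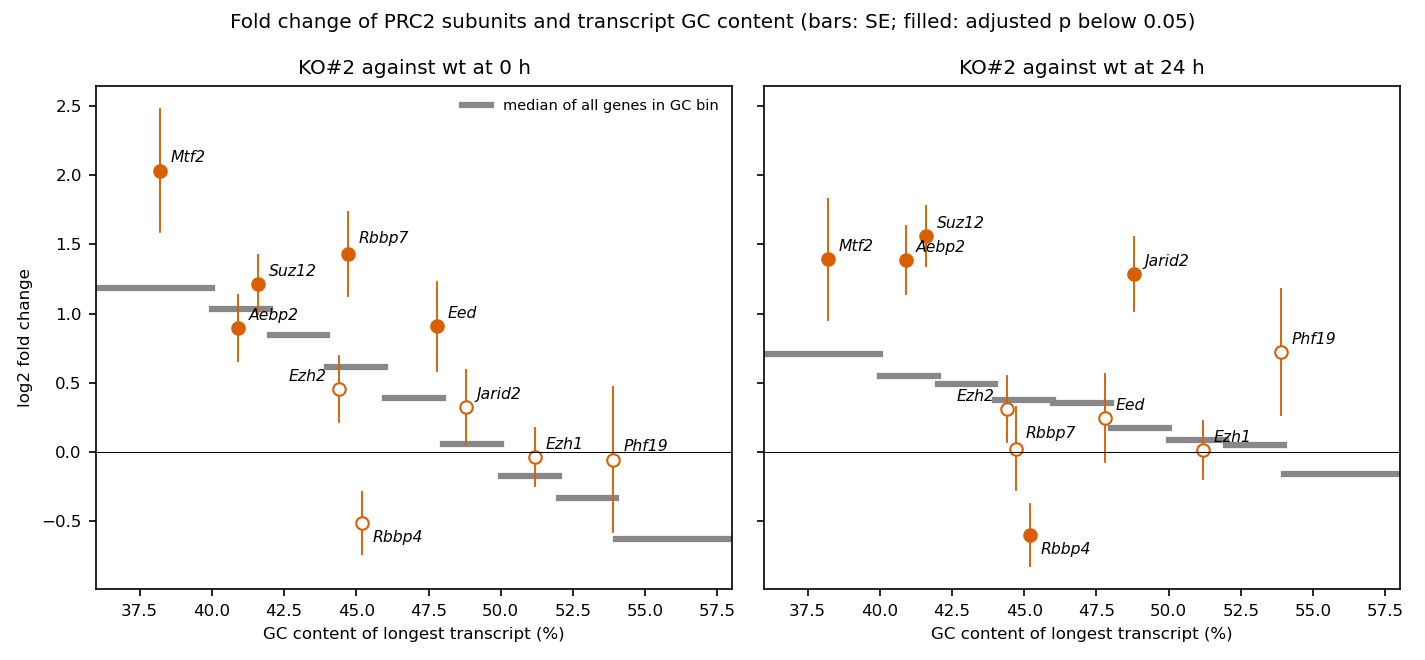
Log2 fold change of KO#2 against wt at 0 h (left) and 24 h (right) by GC content of the longest transcript. Orange points are the subunits with SE bars, filled at an adjusted p below 0.05, and grey bars are medians of all genes in GC bins, with the outermost bins, below 40% and above 54%, drawn to the edge. Suz12 and Aebp2 sit near the grey bar at 0 h and above it at 24 h, and Rbbp4 is below it at both times.

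With the fit's offsets corrected for GC content, and for GC content and length (alternatives chosen after seeing the data), the 5 members called at 24 h kept their call in each of the 4 corrected fits, replicate block included. There Suz12 was at 1.20 with GC content alone and at 1.05 with length added, Jarid2 at 1.23 and 0.62, Mtf2 at 0.95 and 0.80, Aebp2 at 0.99 and 0.66, and Rbbp4 at -0.81 and -1.02. At 0 h Mtf2 (1.14 and 1.17) and Rbbp7 (0.92 and 1.06) kept their call in all 4 fits, whereas Suz12 (0.46, adjusted p = 0.167, and 0.48, adjusted p = 0.0758) and Aebp2 (0.05, adjusted p = 0.914, and 0.08, adjusted p = 0.841) lost it. Eed lost it with GC content alone (0.71, adjusted p = 0.093) and not with length added (0.82, adjusted p = 0.03). Rbbp4, uncalled in the uncorrected edgeR fit (-0.52 ± 0.22, adjusted p = 0.0747), was called lower at 0 h in all 4 fits (-0.98 and -0.95). Without correction it was also called lower by DESeq2 (-0.56, adjusted p = 0.00782) and with DESeq2 size factors in edgeR (-0.56, adjusted p = 0.0434). Whether the trend with GC content came from the cells or from the libraries was not tested. Feeder markers were also higher in KO#2 than in wt, with 4 of 8 called at 0 h and 6 of 8 at 24 h, beside 21.5% and 21.3% of all genes called higher. Their sum was 110 to 390 CPM in wt and 331 to 898 in KO#2 at 0 h, and 19.0 to 34.6 and 71.0 to 219 at 24 h. Dcn went against the sum with time in each line. In wt it had no counts in the 3 libraries at 0 h and 4.45 to 8.33 CPM at 24 h, where it overlapped with KO#2 (4.57 to 9.67). It was at 3.17 to 4.54 CPM in KO#2 at 0 h, and in KO#1 at 0 to 0.409 CPM at 0 h and 0.498 to 2.79 at 24 h. The part of the feeder markers, and of the naive, primed and cycling markers that also differed between KO#2 and wt, in these differences was not tested.

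**Figure D5:**
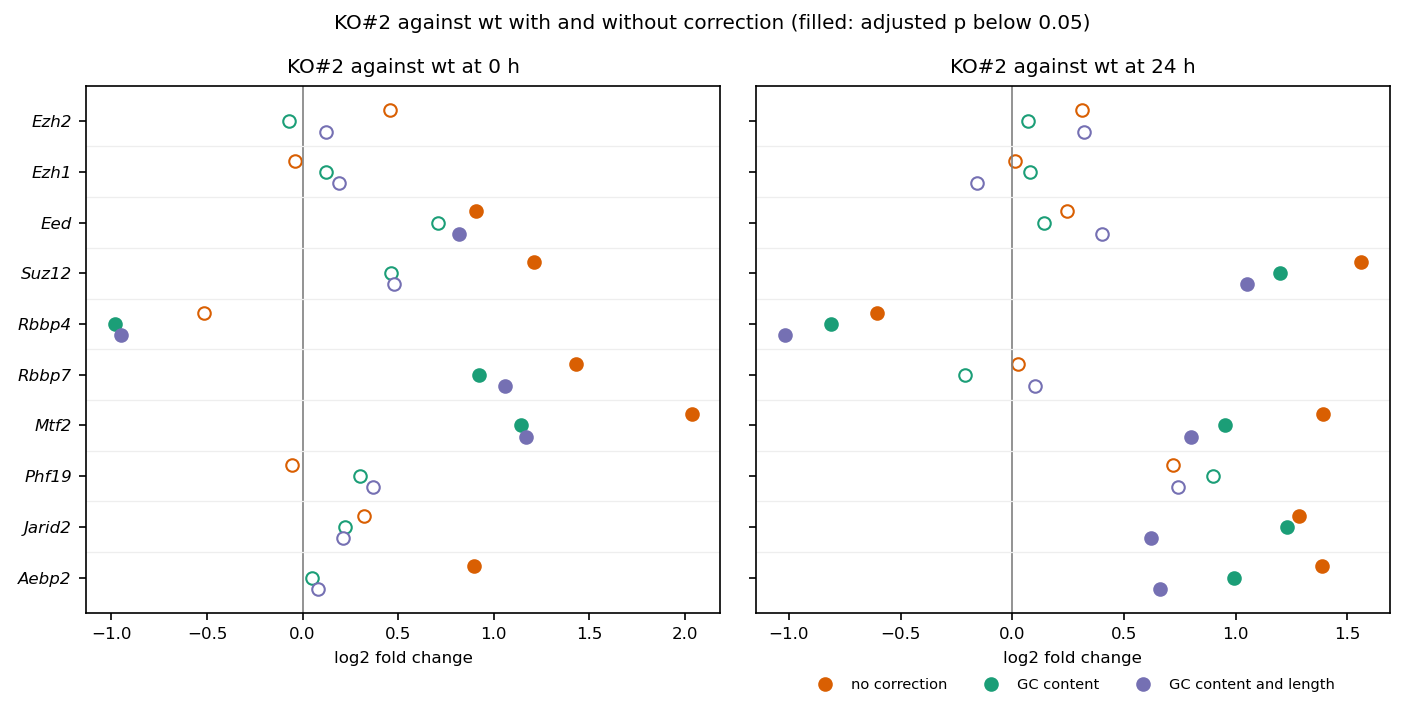
Log2 fold change of KO#2 against wt at 0 h (left) and 24 h (right) without correction, with offsets corrected for GC content, and for GC content and length. Filled points have an adjusted p below 0.05. Suz12 moves from 1.21 to 0.46 and 0.48 at 0 h, and from 1.56 to 1.20 and 1.05 at 24 h.

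Between the clones, in comparisons added after seeing the data, KO#2 had 3 of 10 members called against KO#1 at 0 h, beside 26.4% of all genes (15.1% higher, 11.3% lower). Mtf2 was 3.26-fold higher (1.70 ± 0.44, adjusted p = 0.00972), Rbbp7 1.94-fold (0.95 ± 0.30, adjusted p = 0.0271) and Suz12 1.86-fold (0.90 ± 0.21, adjusted p = 0.00574). None of these 3 calls held in all 4 corrected fits, and with GC content alone they were at 0.71, 0.53 and 0.19. The Rbbp7 call was also lost without replicate 1 or 2 of KO#1 or replicate 2 of KO#2 (0.71 to 0.81, highest adjusted p 0.12), and with only the groups compared (0.93, adjusted p = 0.085). At 24 h 3 of 10 were called, beside 35.4% (19.3% higher, 16.1% lower). Suz12 was 2.95-fold higher (1.56 ± 0.21, adjusted p = 5.92e-05), Aebp2 2.24-fold (1.16 ± 0.24, adjusted p = 0.00143) and Jarid2 2.11-fold (1.08 ± 0.27, adjusted p = 0.005). Suz12 kept its call in all 4 corrected fits (0.98 with GC content alone, 0.87 with length added). Aebp2 lost its call with GC content alone (0.52, adjusted p = 0.171) and with length added (0.19, adjusted p = 0.584), and Jarid2 with length added (0.37, adjusted p = 0.12). Rbbp4 was called lower in all 4 at both times (-0.82 at 0 h and -0.61 at 24 h with GC content alone). Without correction it was uncalled, at -0.44 (adjusted p = 0.148) at 0 h and -0.29 (adjusted p = 0.323) at 24 h. DESeq2 called it lower at 0 h (-0.46, adjusted p = 0.0414), whereas library sizes alone called it higher at 24 h (0.79, adjusted p = 0.0419). Mtf2 at 24 h was at 1.02 ± 0.43 (adjusted p = 0.0739) and, without replicate 1 of KO#1, at 1.70 (adjusted p = 0.00763). It was also called with the replicate block (1.14, adjusted p = 0.0492), with no filter (1.05, adjusted p = 0.00662) and with library sizes alone (2.20, adjusted p = 0.000233).

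Of 6 other genes of the complex or of H3K27 demethylation that were in the table and passed the filter, none was called between KO#1 and wt, with 0 and 1 at an unadjusted p below 0.05 at 0 h and 24 h, beside 19.9% and 22.3% of all genes. In KO#2 against wt, 3 were called higher at each time and none lower, beside 21.5% of all genes called higher at 0 h and 21.3% at 24 h. Kdm6a (Utx), an H3K27 demethylase, had 0 h levels of 37.3 ± 5.18 CPM in wt and 77.1 ± 9.10 in KO#2, a log2 fold change of 1.04 ± 0.19 (adjusted p = 0.000798), and 24 h levels of 41.4 ± 1.53 and 84.4 ± 13.2 CPM, a log2 fold change of 1.03 ± 0.19 (adjusted p = 0.000532). The others were Lcor (1.56 ± 0.31 at 0 h, 1.60 ± 0.30 at 24 h) and Lcorl (1.97 ± 0.39 and 1.49 ± 0.38), whose loci also encode PRC2-binding proteins. With time, Phf1 (Pcl1), the remaining Polycomb-like gene, fell in wt (-1.31 ± 0.37, adjusted p = 0.00696) and KO#2 (-1.16 ± 0.36, adjusted p = 0.0242), opposite to Phf19, and was at -0.90 ± 0.37 in KO#1 (adjusted p = 0.0591, groups not overlapping). Kdm6b (Jmjd3), the other demethylase, fell in wt (-3.16 ± 0.96, adjusted p = 0.0113) and KO#1 (-3.95 ± 1.01, adjusted p = 0.00528), and was at -0.03 ± 0.88 in KO#2 (adjusted p = 0.989), where the groups overlapped. AU022751 was called in none of the comparisons with wt or with time.

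Developmental genes that carry the PRC2 mark in pluripotent cells were mostly near the detection limit, and 10 of a list of 22 passed the filter. With time, 3 of them rose and 3 fell in wt, where 26% of all genes were called higher and 24.7% lower. In KO#1 0 rose and 2 fell (20.1% and 20.6% of all genes), and in KO#2 4 rose and 1 fell (12.7% and 13.3%). In wt the largest of these changes were rises of Pax6 (group means of 0.0556 at 0 h and 1.17 CPM at 24 h) and Msx1 (0.320 and 2.68) and falls of Gata4 (2.17 and 0.346) and Isl1 (0.575 and 0.131). In KO#2 they included rises of Pax6 (0.131 and 1.19) and Msx1 (0.335 and 2.33) and a fall of Tbx5 (0.302 and 0.0129), and in KO#1 falls of Gata4 (2.38 and 0.570) and Tbx5 (1.35 and 0). Against wt, Olig2, a neural progenitor factor, was called in both clones at both times. There were 0 counts of it in every KO library and 25.7 ± 8.84 CPM in wt at 0 h and 10.9 ± 0.978 at 24 h. Taking the KO group at the highest value that 3 counts make in its libraries, it was at least 41.0-fold lower in KO#1 and 178-fold lower in KO#2 at 0 h, and at least 35.5-fold and 69.5-fold lower at 24 h. Apart from Olig2, 1 target (Tbx5, higher) was called in KO#1 at 0 h and none at 24 h, beside 6.67% and 9.86% of all genes. In KO#2 none was called at 0 h, beside 38.1% of all genes, and Gata4 and Hand1 were higher at 24 h, beside 37.3%. These calls are limited by the filter, which a gene can pass through 1 group alone. Olig2 had counts in wt only. The group mean of Tbx5 was 1.35 CPM in KO#1 at 0 h and at most 0.302 elsewhere. That of Hand1 was 0.606 in KO#2 at 24 h and at most 0.323 elsewhere. Counts of such genes are a description only.

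Over the 18 libraries and 6474 genes of at least 4 average log2 CPM, the genes most like Ezh2 in log2 CPM were Blm (Pearson r 0.90), Nup160 (0.88) and Rad50 (0.87). Those most like Suz12 were Cep170 (0.97), Taok1 (0.97) and Atp13a3 (0.96). These are descriptions over libraries that share composition and depth within groups. Between members, Suz12 was most like Aebp2 (0.84, and 0.54 for deviations from the group means). With Rbbp4 it had an r of -0.63 over all libraries and of 0.47 for deviations from the group means.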

How the data were processed

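Total RNA of 18 libraries (6 groups of 3 biological replicates) was sequenced as stranded paired reads of 75 bases. The deposited values are raw read counts per gene, which the authors made with the nf-core rnaseq pipeline (Trim Galore, STAR on GRCm38, Salmon), and DESeq2 is named in the submitters' processing notes. The annotation release and the strand setting of the counting are not given in the sources used here. Depth ran from 3466436 to 23872837 counts, and 3 counts in a library make 0.116 to 0.984 CPM. This floor covers counting error only. No library pair was identical.

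Counts were analysed with edgeR 4.0.16 in R 4.3.3: filterByExpr with a minimum count of 10, TMM factors, 1 quasi-likelihood fit of all 18 libraries in 6 groups, and Benjamini-Hochberg adjustment over all 16619 genes tested, with a threshold of 0.05. log2 CPM used a prior count of 2. Alternatives were DESeq2 1.42.0 and its size factors, library sizes alone, other filters, a replicate block, and each library left out. Offsets from a natural spline of GC content, and of GC content and length, were added after seeing the data. Exon lengths, overlaps and GC content came from GENCODE M21, sequences from RefSeq (GRCm38.p6). Figures were drawn with matplotlib 3.10.9. All 10 members, the listed other PRC2 genes and up to 4 called target genes with the largest changes per comparison were to be named, and 1 target gene is not reported here. The members and lists were chosen with earlier results of these data known.

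Same-numbered libraries deviated together in 1 comparison, KO#1 against wt at 24 h (Pearson r 0.48, 0.22 and 0.59 across genes), where the block left the count of members called at 0. For other pairs of groups this did not hold in all 3 replicate numbers, though some values were of similar size. KO#2 at 24 h and 0 h gave 0.46, 0.33 and -0.00055, and KO#2 and wt at 0 h gave 0.15, 0.31 and -0.0064.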

Additional observations from a re-analysis of the deposited data

How the results depend on the processing

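Of the members' log2 fold changes under the alternatives, 1794 kept their sign and their side of the threshold, 164 that were called neither before nor after changed sign, 71 lost a call, 52 gained one and 8 reversed as given below. Counts of members called that moved by over 1.5 times are given here, and the cause was not tested. For 24 h against 0 h in wt, 3 members became 5 with DESeq2 and 6 with offsets for GC content and length, also with the replicate block. In KO#1, 5 became 2 at an adjusted p under 0.01 and 2 to 4 when 1 library was left out. In KO#2, 2 became 1 with library sizes alone, with no filter, with only the groups compared, at an adjusted p under 0.01 or with changes of at least 2-fold required, 1 to 2 when 1 library was left out, and 0 with at least 10 counts in every library, a filter that Phf19 does not pass. For KO#2 against wt at 0 h, 5 became 3 with changes of at least 2-fold required and 3 with offsets for GC content, also with the replicate block. At 24 h, 5 became 9 with library sizes alone, 3 at an adjusted p under 0.01, and 3 to 4 when 1 library was left out. For KO#2 against KO#1, 3 at 0 h became 1 with changes of at least 2-fold required and 1 with offsets for GC content, also with the replicate block, and 3 at 24 h became 9 with library sizes alone. The response difference of KO#2 went from 0 to 1 with DESeq2, with no filter, and with offsets for GC content, or for GC content and length, with the replicate block (Rbbp7 in each). Library sizes alone, which moved the median over all genes with time to -0.58 in wt and -0.78 in KO#1, reversed Rbbp4 in KO#2 against wt at 24 h (0.43) and Ezh1 (1.02), Eed (0.86) and Rbbp4 (0.79) in KO#2 against KO#1 at 24 h. Offsets for GC content and length reversed Jarid2 with time in wt (0.67, and 0.68 with the replicate block) and in KO#1 (0.58 in both). The replicate block without offsets changed 2 counts, to 4 for 24 h against 0 h in wt and to 4 for KO#2 against KO#1 at 24 h. All offsets were chosen after seeing the data. The shallowest library, replicate 1 of wt at 0 h, limits low genes such as Phf19 most, where 3 counts make 0.984 CPM.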
